A study of Mus musculus with 6 samples.

Results

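The 10 genes described here are p53 itself (Trp53), its inhibitors Mdm2 and Mdm4, the p53 targets Cdkn1a, Phlda3 and Ccng1, and 4 further inhibitors of cyclin-dependent kinases (CDKs), Cdkn1b, Cdkn2a, Cdkn2b and Cdkn2c. They were chosen by name from what they are known to do, and rows were matched by gene symbol. Of the 10 genes, 8 had a row among the 15726 genes of the table, and all 8 passed the filter on low values. Cdkn2a and Cdkn2b had no matching row and were not analysed here. mRNA was sequenced from the mouse melanoma line B16F10 after 8 h with either rPPAA18C6@Dox (50 μg/mL, 3 libraries) or PBS (3 libraries). That code is the preparation's only name in the labels; from the title of the series it is a nanoplatform built around a potassium ionophore and studied for pyroptosis and ER stress. The labels hold no group given the carrier alone or Dox alone, so no difference can be assigned to one component. Whether replicates were separate cultures is not stated, so p-values measure only how these 6 libraries vary, which may be technical variation.

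The p53 protein is a transcription factor that accumulates after DNA damage, mainly because its breakdown slows rather than because its mRNA rises. Mdm2 is the ubiquitin ligase that marks p53 for breakdown and is itself a p53 target, which closes a feedback loop, and Mdm4 is a relative that blocks the activity of p53. Cdkn1a encodes p21, which with p27 (Cdkn1b) belongs to the CIP/KIP class of CDK inhibitors. The proteins p16, p15 and p18 (Cdkn2a, Cdkn2b, Cdkn2c) belong to the INK4 class that binds Cdk4 and Cdk6. mRNA levels do not report how much of any of these proteins is present or active.

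A pair of start regions is shown because Cdkn1a and Phlda3 are both p53 targets and gave different results. RefSeq windows of GRCm38.p6, from 250 bases before to 50 bases after an annotated start, were matched by symbol for all 10 genes, 14 windows in all. They were searched on both strands for CATGNNNNNNCATG, the core of paired p53 half-sites, and for the single core ACATGT, which lies within some matches of the first. Both motifs were chosen after the sequences had been seen. The first motif was found in 0.712% of all 32851 windows and the second in 5.28%. Among the 14 windows only that of the upstream Cdkn1a start held the first motif, and only that window and that of Phlda3 held the second. Capitals mark the paired element of Cdkn1a, which begins 51 bases before the upstream start and 2841 bases before the downstream one. They also mark the single core of Phlda3, which begins 44 bases after its start. A match is a description of letters and not of binding. Sites outside these windows or with other letters were not searched for, so a window without a match does not show that a gene lacks p53 sites. Whether the motifs have a part in the different results of Cdkn1a and Phlda3 was not tested.
Cdkn1a upstream start, chr17:29090729-29091028, plus strand: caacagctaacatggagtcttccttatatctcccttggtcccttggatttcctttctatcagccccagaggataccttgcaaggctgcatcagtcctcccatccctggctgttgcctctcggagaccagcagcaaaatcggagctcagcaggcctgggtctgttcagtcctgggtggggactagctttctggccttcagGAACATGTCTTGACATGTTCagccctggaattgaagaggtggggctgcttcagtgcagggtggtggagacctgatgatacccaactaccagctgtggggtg
Phlda3 start, chr1:135765835-135766134, plus strand: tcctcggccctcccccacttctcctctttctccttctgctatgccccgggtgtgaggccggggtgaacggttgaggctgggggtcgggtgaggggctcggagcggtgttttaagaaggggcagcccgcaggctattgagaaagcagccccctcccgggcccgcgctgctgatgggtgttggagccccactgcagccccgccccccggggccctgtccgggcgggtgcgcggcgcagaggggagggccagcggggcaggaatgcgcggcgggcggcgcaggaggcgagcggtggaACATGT

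Values are FPKM, read counts scaled to the length of the gene and the depth of the library, and 36380462 to 37067116 reads per library were recovered from the steps in these values. All 7 melanocyte markers examined were present, at a summed 7198 to 7228 FPKM in rPPAA18C6@Dox libraries and 6145 to 6233 FPKM in PBS libraries, and 5 of the 7 rose. Markers of other cell types were low: in rPPAA18C6@Dox and PBS libraries, the summed immune markers reached at most 1.72 and 1.34 FPKM, the fibroblast markers 4.07 and 4.35 FPKM, the endothelial markers 4.88 and 3.23 FPKM and the epithelial markers 0.280 and 0.175 FPKM. Of these lists, 1 of 6 immune, 5 of 6 fibroblast, 2 of 4 endothelial and 1 of 4 epithelial markers had a row, and Cd68 and Vwf rose. Their part in the results below was not tested.

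Of the 8 measured genes, Phlda3 rose and Trp53 and Cdkn2c fell, by 11.2% to 14.4% of the PBS mean, while Cdkn1a, Ccng1, Mdm2, Mdm4 and Cdkn1b did not pass the test. The test was limma on log2(FPKM + 1), two-sided, with Benjamini-Hochberg adjustment over all 10680 genes that reached a mean of 1 FPKM in either group, and a threshold of 0.05. Over all tested genes 9.93% passed it, 4.66% higher and 5.26% lower, and with libraries centred to a common median the split of calls was 595 higher and 446 lower in place of 498 and 562. The 3 calls among 8 genes stand against that background without a test, since the genes were chosen with earlier results of these data known. The median log2 fold change of the 8 genes was -0.02, and that of all tested genes was -0.01. In these bulk samples, fewer cells of a type and less RNA per cell cannot be told apart.

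Trp53, the gene of p53, had 39.6, 42.6 and 41.7 FPKM in rPPAA18C6@Dox libraries, against 47.0, 46.4 and 46.1 FPKM in PBS libraries. The rPPAA18C6@Dox libraries all lay below the PBS libraries, and the lowest was replicate 1. The mean was 41.3 ± 1.54 FPKM in rPPAA18C6@Dox libraries and 46.5 ± 0.486 FPKM in PBS libraries (SD, n = 3 each), so that the level fell by 11.2%. The log2 fold change was -0.17 (SE 0.0309, limma adjusted p = 0.00844), with a 95% confidence interval of -0.24 to -0.10. Each value rests on 3349 to 4028 reads. Without rPPAA18C6@Dox replicate 1 the fold change was -0.14, and the call held in all 14 alternative fits (adjusted p 0.00153 to 0.0329). The mouse annotation holds a processed pseudogene copy named Trp53-ps, and how reads shared with it were counted is not given in the sources used here, so the level of Trp53 is uncertain to that extent. The same holds for Mdm4 and Mdm4-ps.

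Mdm2, which encodes the ubiquitin ligase of p53, had 18.8, 18.5 and 18.6 FPKM in rPPAA18C6@Dox libraries, against 19.3, 18.4 and 18.7 FPKM in PBS libraries. The groups overlapped. On the log2 scale the fold change was -0.01 (SE 0.0305, limma adjusted p = 0.850), and its 95% interval corresponds to a change between -5.37% and 3.99%. The sign turned with voom, with centred libraries and without PBS replicate 1. Mdm4, the relative that restrains p53 activity, had 19.21, 19.00 and 18.15 FPKM in rPPAA18C6@Dox libraries and 19.11, 20.29 and 19.97 FPKM in PBS libraries. Its groups overlapped through PBS replicate 1, which lay below rPPAA18C6@Dox replicate 1. Its log2 fold change was -0.07 (SE 0.0349, limma adjusted p = 0.232), with an interval of -9.82% to 0.463%.

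Cdkn1a, the gene of the CDK inhibitor p21 and the best known p53 target in cell cycle arrest, had 154, 155 and 164 FPKM in rPPAA18C6@Dox libraries, against 156, 157 and 157 FPKM in PBS libraries. Of the rPPAA18C6@Dox libraries, replicate 3 lay above all PBS libraries and the other two lay below them. The spread among rPPAA18C6@Dox libraries was 3.58% of their mean, against 0.461% among PBS libraries, where counting alone gives 0.918% and 0.920%. This gave a log2 fold change of 0.01 (SE 0.0279, limma adjusted p = 0.900), with a 95% interval of -3.74% to 4.92%. Without rPPAA18C6@Dox replicate 3 it was -0.02, and with quantile normalization -0.01. The noncoding RNA Trp53cor1 (lincRNA-p21), which lies beside Cdkn1a, was looked up after the other values were seen. It had 1.69 ± 0.0858 FPKM in rPPAA18C6@Dox libraries and 1.58 ± 0.104 FPKM in PBS libraries (log2 fold change 0.06, SE 0.0588, limma adjusted p = 0.559).

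Phlda3, a p53 target whose small protein blocks membrane recruitment of the kinase AKT, had 73.9, 74.1 and 75.9 FPKM in rPPAA18C6@Dox libraries, against 66.2, 64.5 and 65.1 FPKM in PBS libraries. The rPPAA18C6@Dox libraries all lay above the PBS libraries, with a gap wider than the range of either group. The mean was 74.6 ± 1.07 FPKM in rPPAA18C6@Dox libraries and 65.3 ± 0.860 FPKM in PBS libraries (SD, n = 3 each), a rise of 14.4%. The log2 fold change was 0.19 (SE 0.0243, limma adjusted p = 0.00130), with a 95% confidence interval of 0.14 to 0.24. The spread within each group, 1.43% and 1.32%, was below what counting alone gives (1.57% and 1.68%). The call held in all 14 alternative fits, with log2 fold changes of 0.18 to 0.20 when 1 library was left out.

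Ccng1, which encodes cyclin G1, another p53 target, had 115, 120 and 120 FPKM in rPPAA18C6@Dox libraries, against 117, 118 and 117 FPKM in PBS libraries. Replicate 1 of the rPPAA18C6@Dox libraries was the lowest of all 6, and replicates 2 and 3 were the highest. The log2 fold change was 0.01 (SE 0.0240, limma adjusted p = 0.752), with an interval of -2.69% to 4.82%. Cdkn1a, Phlda3 and Ccng1 therefore gave 1 rise and 2 values near 0. Mdm2, also a p53 target, had a log2 fold change of -0.01. Within libraries, the ratio of Phlda3 to Cdkn1a was 0.481, 0.478 and 0.463 in rPPAA18C6@Dox libraries, against 0.425, 0.411 and 0.414 in PBS libraries. These ratios, chosen after their values were seen, did not overlap, and the exact permutation test gave p = 0.10 (two-sided), the smallest that 3 against 3 libraries allow. The groups of Phlda3 were already apart, so this test adds no separate evidence to its call.

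Cdkn1b, the gene of p27, had 24.61, 26.66 and 28.11 FPKM in rPPAA18C6@Dox libraries, against 26.002, 27.17 and 27.42 FPKM in PBS libraries. The rPPAA18C6@Dox libraries held both the lowest and the highest value, with a spread of 6.65% of their mean against 2.82% in PBS libraries. The log2 fold change was -0.02 (SE 0.0450, limma adjusted p = 0.793), with an interval of -8.19% to 5.52%, and it was 0.03 without rPPAA18C6@Dox replicate 1. Cdkn2c, the gene of the INK4 protein p18, had 13.20, 12.74 and 13.009 FPKM in rPPAA18C6@Dox libraries, against 15.07, 13.63 and 15.32 FPKM in PBS libraries. The groups did not overlap, but PBS replicate 2 lay closer to the rPPAA18C6@Dox libraries than to the other PBS libraries. The mean was 12.98 ± 0.231 FPKM in rPPAA18C6@Dox libraries and 14.67 ± 0.913 FPKM in PBS libraries (SD, n = 3 each), so that it fell by 11.5%.

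The log2 fold change of Cdkn2c was -0.16 (SE 0.0439, limma adjusted p = 0.0447), just past the threshold. It did not pass in 9 of 14 alternative fits, among them quantile normalization (limma adjusted p = 0.0511) and the fits without each of 5 libraries (up to 0.140). Without PBS replicate 2 it passed (0.0141). The genes of p16 and p15 were not analysed here. The coding gene next to Cdkn2a on the chromosome, Mtap, an enzyme of methionine salvage, was looked up after the other values were seen. It had 85.5 ± 1.40 FPKM in rPPAA18C6@Dox libraries and 97.2 ± 1.29 FPKM in PBS libraries (SD, n = 3 each), and it fell (log2 fold change -0.18, SE 0.0241, limma adjusted p = 0.00157).

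**Figure D1:**
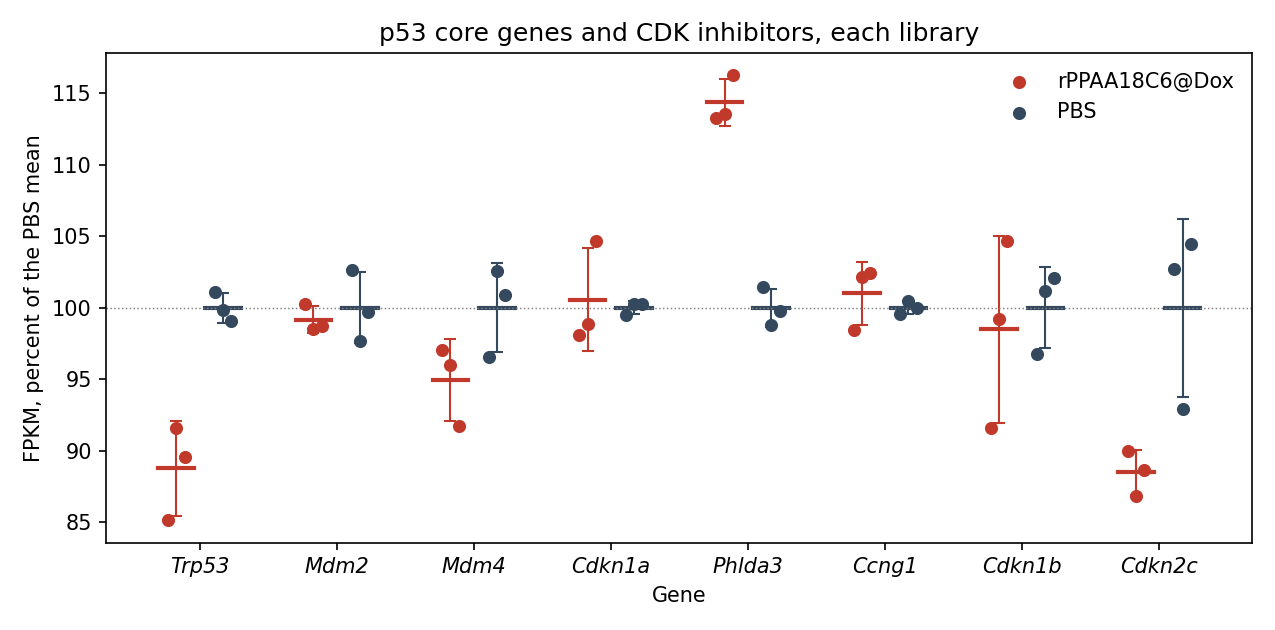
FPKM of each of the 8 measured genes in each library as a percentage of its PBS mean, with rPPAA18C6@Dox (red) left of PBS (blue); points are libraries, the long bar the mean and the whiskers the SD (n = 3). Only Phlda3 lies wholly above and only Trp53 and Cdkn2c wholly below the PBS libraries among these genes.

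**Figure D2:**
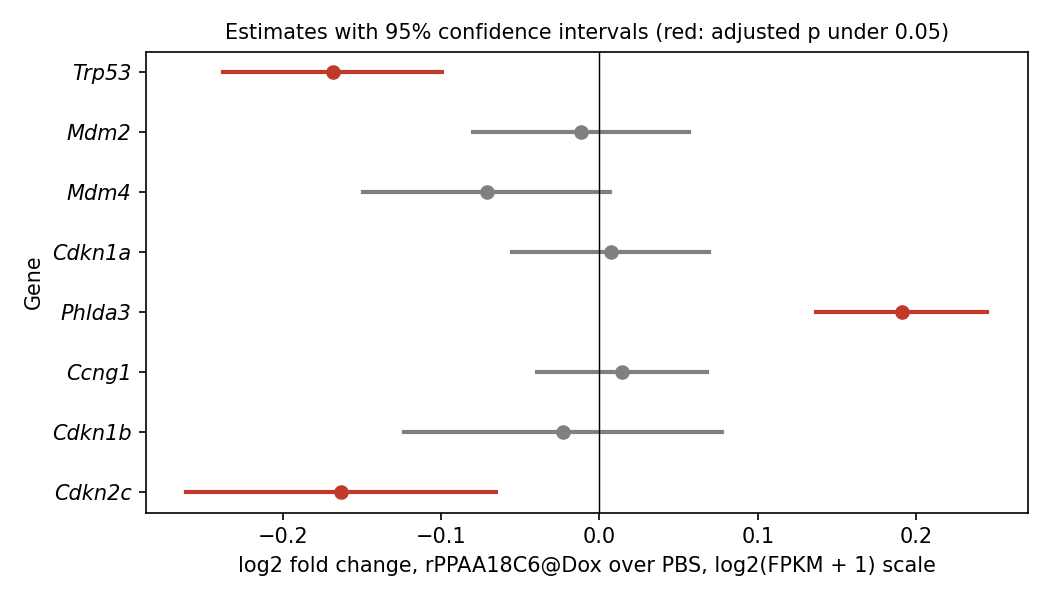
Log2 fold change of rPPAA18C6@Dox over PBS on the log2(FPKM + 1) scale for the 8 measured genes, with 95% confidence intervals from limma. Red marks an adjusted p under 0.05: Trp53 at -0.17, Cdkn2c at -0.16 and Phlda3 at 0.19.

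The groups of 3 of the 8 genes did not overlap, and they were the 3 called. Over all tested genes 31.3% had groups that did not overlap, 12.6% with every rPPAA18C6@Dox library higher and 18.7% with every one lower. In the authors' deposited table the p-values were 6.87e-09 for Phlda3, 0.000117 for Trp53 and 0.0118 for Cdkn2c. They were between 0.124 and 0.942 for the other 5 genes, by a test the file does not name and with no sign of adjustment in the column's name. Of the 8 genes, the 3 with the smallest deposited values were those that passed limma's threshold. The deposited values, the overlaps and limma rest on the same libraries, so they are not separate evidence.

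In level per length the order was the same in all libraries but for one pair of neighbours. Cdkn1a was highest, at a mean over the 6 libraries of 157 FPKM, then Ccng1 at 118, Phlda3 at 70.0, Trp53 at 43.9, Cdkn1b at 26.7, Mdm4 at 19.3, Mdm2 at 18.7 and Cdkn2c at 13.8 FPKM. The ranges of neighbours over the 6 libraries did not overlap, except for Mdm4 and Mdm2, where Mdm4 was higher in 4 of 6 libraries. Among the measured CIP/KIP and INK4 genes (Cdkn1a, Cdkn1b, Cdkn1c, Cdkn2c and Cdkn2d), the p21 gene held 72.0% ± 0.585 of the summed FPKM in rPPAA18C6@Dox libraries and 71.4% ± 0.812 in PBS libraries (SD, n = 3 each; two-sided exact permutation p = 0.30). That sum, which lacks Cdkn2a and Cdkn2b and does not count the CDK-binding phosphatase gene Cdkn3, was 219 ± 8.16 FPKM in rPPAA18C6@Dox libraries and 220 ± 2.31 FPKM in PBS libraries (two-sided exact permutation p = 0.90).

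**Figure D3:**
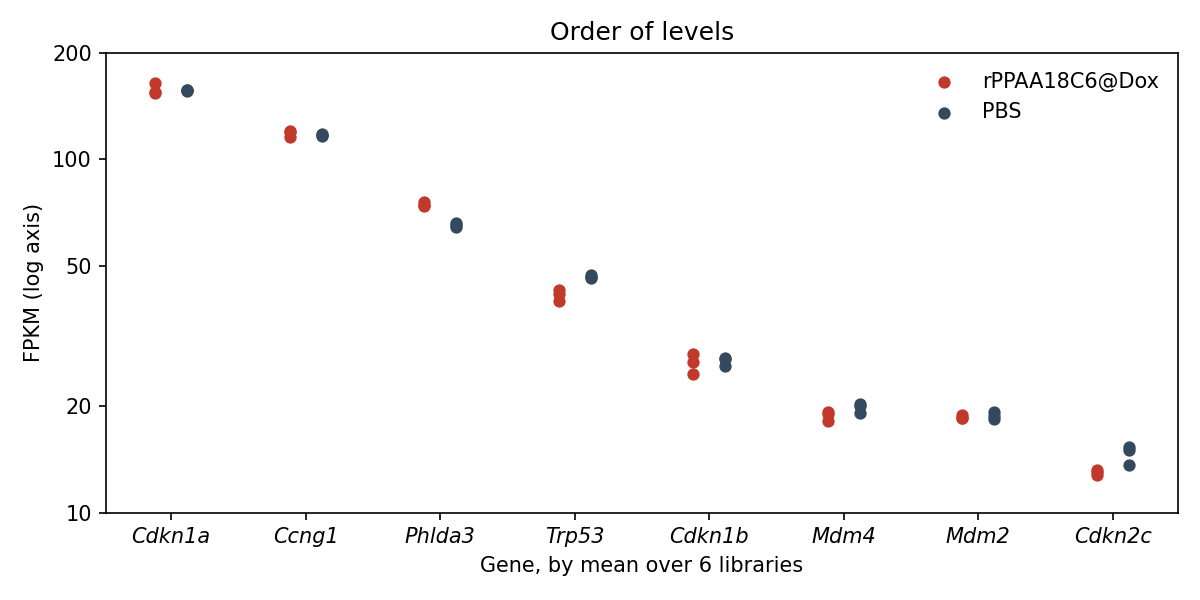
FPKM (log axis) of the 8 measured genes in each library, ordered by the mean over the 6 libraries, with rPPAA18C6@Dox (red) left of PBS (blue). Cdkn1a, at 154 to 164 FPKM, is the highest in every library and Cdkn2c, at 12.7 to 15.3 FPKM, the lowest.

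Because Trp53 fell and its regulator Mdm2 did not pass the test, their ratio within each library was also computed, after the values had been seen. The ratio of Mdm2 to Trp53 was 0.476, 0.435 and 0.445 in rPPAA18C6@Dox libraries, against 0.410, 0.396 and 0.407 in PBS libraries, with no overlap (two-sided exact permutation p = 0.10, the smallest possible). The ratio of Phlda3 to Trp53 was 1.81 ± 0.0649 in rPPAA18C6@Dox libraries and 1.40 ± 0.0126 in PBS libraries, and that of Cdkn1a to Trp53 was 3.82 ± 0.161 and 3.37 ± 0.0498 in the same order (SD, n = 3 each; two-sided exact permutation p = 0.10 for both). In all 3 of these ratios the fall of Trp53 is part of the difference, so they are not separate evidence beside its call. None passes the threshold, which this number of libraries does not allow.

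The genes most like each called gene were sought by the distance between the 6 centred log2(FPKM + 1) values, among tested genes of at least 5 FPKM. Nearest to Phlda3 were Calr, the ER chaperone calreticulin (distance 0.0327), Agfg1, an Arf GTPase activating relative (0.0327), and Xrcc5, which encodes the DNA end-binding protein Ku80 (0.0338). Calr had 550 ± 6.46 FPKM in rPPAA18C6@Dox libraries and 481 ± 3.997 FPKM in PBS libraries, and Xrcc5 had 62.1 ± 0.892 and 54.5 ± 0.385 FPKM in the same order (SD, n = 3 each). Nearest to Trp53 were Plekhg2 (distance 0.0333), the actin-binding profilin gene Pfn1 (0.0377) and the folate enzyme gene Shmt1 (0.0480). Pfn1 had 235 ± 11.6 FPKM in rPPAA18C6@Dox libraries and 261 ± 0.201 FPKM in PBS libraries (SD, n = 3 each). Its lowest library was rPPAA18C6@Dox replicate 1, as for Trp53, a likeness that the choice by distance favours. Nearest to Cdkn2c were the annexin gene Anxa1 (0.0412), Cchcr1 (0.0538) and Thoc6 (0.0583). The distances rest on 6 libraries of 2 groups, so any gene with a change of like size lies near.

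Of 31 tested other p53 targets, 2 rose and 2 fell, where 9.93% of all tested genes were called in either direction. Their median log2 fold change was 0.01, where that of all tested genes was -0.01. Plk3, a stress-responsive Polo-like kinase, had 5.81 ± 0.569 FPKM in rPPAA18C6@Dox libraries and 4.47 ± 0.282 FPKM in PBS libraries (SD, n = 3 each; log2 fold change 0.31, SE 0.0650, limma adjusted p = 0.0152). Tigar, which lowers glycolytic flux, had 9.66 ± 0.289 FPKM in rPPAA18C6@Dox libraries and 8.62 ± 0.292 FPKM in PBS libraries (0.15, SE 0.0392, adjusted p = 0.0417). The 2 that fell act in mitosis. Ckap2, which encodes a spindle protein, had 21.2 ± 0.206 FPKM in rPPAA18C6@Dox libraries and 24.5 ± 0.295 FPKM in PBS libraries (-0.20, SE 0.0275, adjusted p = 0.00215). Psrc1, which encodes a microtubule-binding protein, had 48.8 ± 1.01 FPKM in rPPAA18C6@Dox libraries and 53.2 ± 0.354 FPKM in PBS libraries (-0.12, SE 0.0255, adjusted p = 0.0166). The counts of rises were 4 with quantile normalization, with centred libraries and with voom, 1 with no trend or the replicate block, 0 with no filter on low values, and 0 to 1 with 1 library left out. Of the 14 alternative fits, Ckap2 kept its call in 14, Plk3 in 11, Psrc1 in 9 and Tigar in 5. The call for Tigar was lost without any 1 library, with no filter, with no trend and with the replicate block (adjusted p up to 0.131). The call for Plk3 was lost with no filter and without rPPAA18C6@Dox replicate 3 or PBS replicate 2 (up to 0.0664), and that for Psrc1 with no trend and without replicate 1 or replicate 3 of either group (up to 0.0573). Plk3 and Tigar overlap Tctex1d4 and Platr31 on the other strand, and the use of strand in counting is not given, so reads of these pairs may be mixed.

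None of the 25 tested regulators of p53 and kinases of the DNA damage response was called by limma, where 9.93% of all tested genes were. Voom also called 0. None had an unadjusted limma p below 0.05, where 2803 of all 10680 tested genes did. Their median log2 fold change was -0.03. Trim24, a ligase that acts on p53, had the smallest p, at 7.57 ± 0.167 FPKM in rPPAA18C6@Dox libraries and 8.16 ± 0.460 FPKM in PBS libraries (SD, n = 3 each; log2 fold change -0.10, SE 0.0447, limma adjusted p = 0.212). Of Cdkn2d and Cdkn3, the other genes of CDK inhibitors tested, limma and voom called neither, and 0 reached an unadjusted p of 0.05. These 2 genes are too few to set against the shares over all tested genes. Cdkn2d, the gene of the INK4 protein p19, had 21.5 ± 1.34 FPKM in rPPAA18C6@Dox libraries and 21.1 ± 1.69 FPKM in PBS libraries (0.03, SE 0.0588, adjusted p = 0.802; the sign turns without PBS replicate 2). Cdkn1c was below the filter, at 0.253 ± 0.0393 and 0.303 ± 0.108 FPKM in the same order. The p53 relatives Trp63 and Trp73 had no matching row and were not analysed here.

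Among 16 genes of cyclins, CDKs, pocket proteins and the p21-binding replication clamp Pcna, 1 rose and 6 fell, where 4.66% of all tested genes were called higher and 5.26% lower. Their median log2 fold change was -0.09. The 5 falls with the smallest p included the cyclin genes Ccnd3 (-0.17, SE 0.0272, limma adjusted p = 0.00415), Ccne1 (-0.14, SE 0.0272, 0.0121) and Ccna2 (-0.09, SE 0.0221, 0.0270). The others of these 5 were the mitotic kinase gene Cdk1 (-0.13, SE 0.0249, 0.00964) and the pocket protein gene Rbl1 (-0.13, SE 0.0334, 0.0396). The remaining fall, of the cyclin gene Ccne2, was just past the threshold (-0.16, SE 0.0436, limma adjusted p = 0.0487). Its alternative fits are not given here. With 1 library left out 3 to 5 of the 16 fell, and 3 fell with no trend. Ccnd3, Cdk1 and Ccne1 kept their calls in all 14 alternative fits, Ccna2 in 6 and Rbl1 in 5. Ccna2 was lost without any 1 library, with no trend and with the replicate block (limma adjusted p up to 0.0903). Rbl1 was lost with quantile normalization, centred libraries, no filter, no trend and each library left out except rPPAA18C6@Dox replicate 2 (up to 0.131). The 1 rise was Cdk2, at 393 ± 6.33 FPKM in rPPAA18C6@Dox libraries and 301 ± 3.47 FPKM in PBS libraries (SD, n = 3 each; 0.39, SE 0.0226, limma adjusted p = 8.40e-06). Cdk2 overlaps exons of the melanosome gene Pmel on the other strand, which had 1532 ± 5.24 FPKM in rPPAA18C6@Dox libraries and 1279 ± 13.5 FPKM in PBS libraries, and its part in the Cdk2 value was not tested. Ccnd3 overlaps Bysl, Ccna2 overlaps Exosc9 and Ccne2 overlaps Ints8, likewise on the other strand.

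Of 19 genes that regulate p27 or the INK4 locus, 0 rose and 3 fell, where 4.66% of all tested genes were called higher and 5.26% lower. Voom also called 0 higher, and 9 of the 19 had an unadjusted limma p below 0.05 in either direction. Such a p was reached by 2803 of all 10680 tested genes. Their median log2 fold change was -0.02. Ets1, a transcription factor that acts on the p16 gene, had 94.0 ± 1.03 FPKM in rPPAA18C6@Dox libraries and 106 ± 2.68 FPKM in PBS libraries (SD, n = 3 each; log2 fold change -0.18, SE 0.0257, limma adjusted p = 0.00278). Cks1b, the cofactor with which the ligase Skp2 recognises p27, fell by 0.12 (SE 0.0313), and Foxo4, a forkhead factor that activates Cdkn1b, by 0.13 (SE 0.0353). With 1 library left out 1 to 2 of these genes fell, and 1 rose when PBS replicate 3 was left out (Id1, named after its values were seen). Of the 14 alternative fits, Ets1 kept its call in 14, Cks1b in 6 and Foxo4 in 3. Foxo4 was lost without any 1 library and with quantile normalization, centred libraries, no filter, no trend and the replicate block (limma adjusted p up to 0.130). Cks1b was lost without replicate 1 or replicate 3 of either group and with no filter, no trend, the replicate block and voom (up to 0.104).

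**Figure D4:**
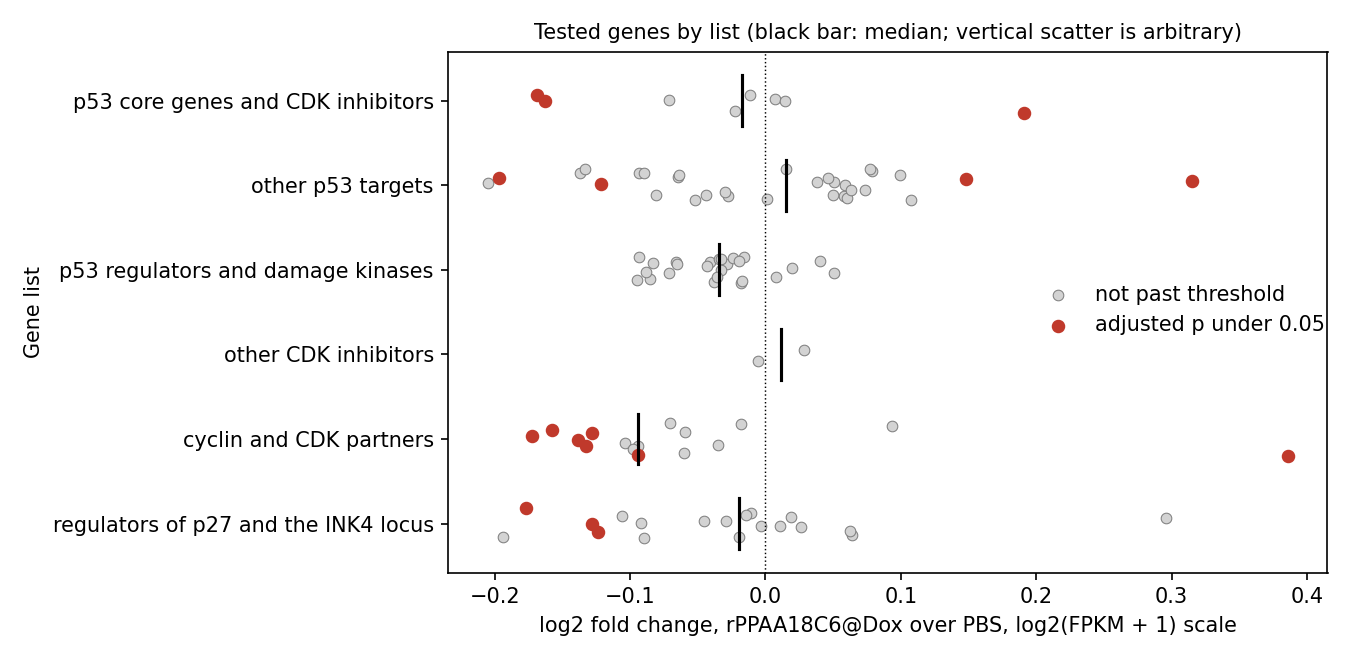
Log2 fold change of rPPAA18C6@Dox over PBS on the log2(FPKM + 1) scale for every tested gene of the 8 measured genes and of 5 related lists; red points passed an adjusted p of 0.05 and the black bar is the median of the list. The list of cyclins, CDKs, pocket proteins and Pcna has the lowest median of these lists, -0.09, with Cdk2 as the 1 red point to the right of 0.

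**Figure D5:**
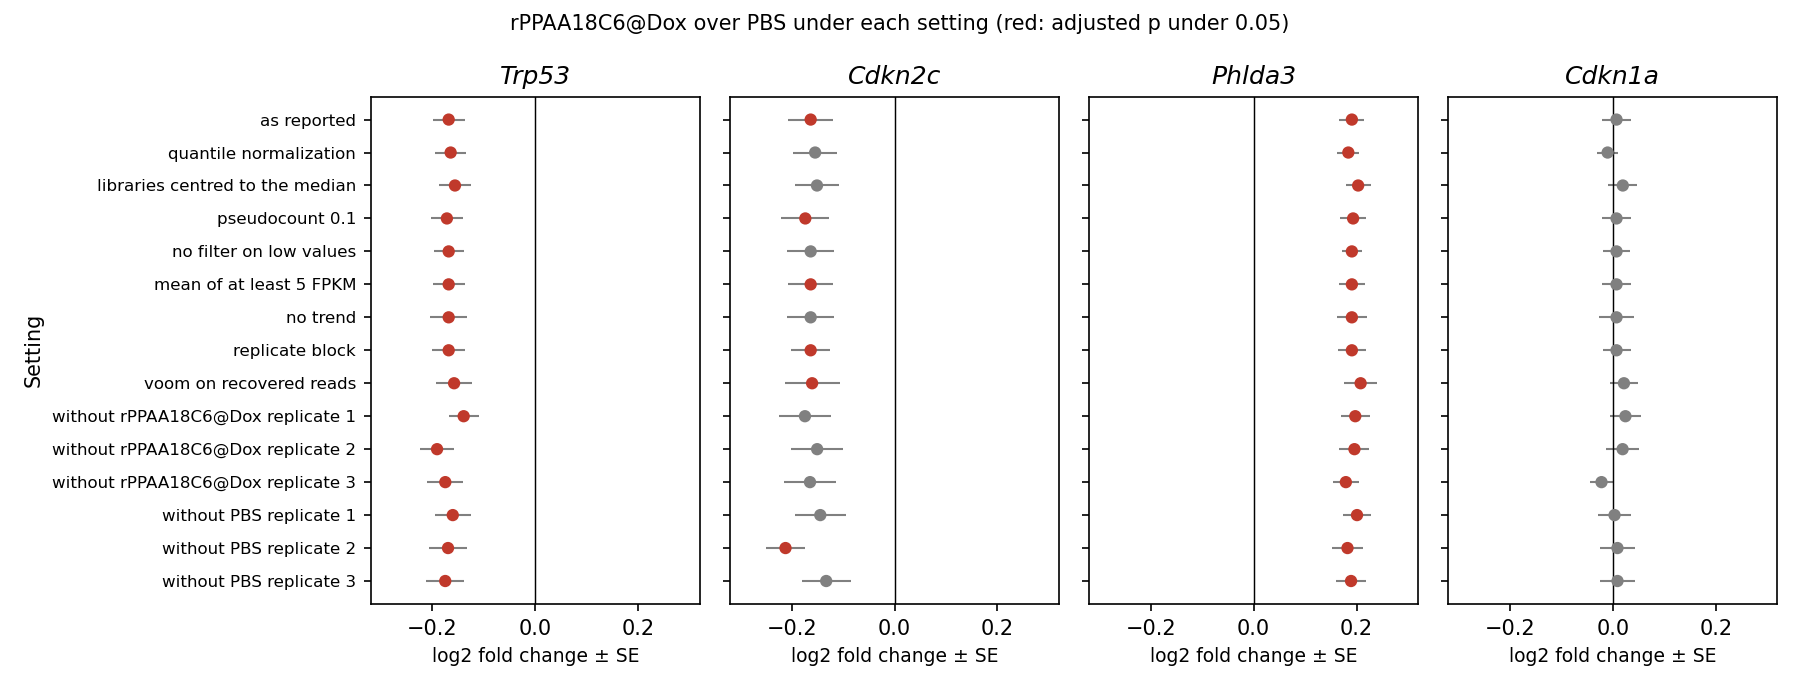
Log2 fold change ± SE of Trp53, Cdkn2c, Phlda3 and Cdkn1a as reported and under each of 14 alternative settings; red marks an adjusted p under 0.05. Trp53 and Phlda3 are red in every row, Cdkn2c in 6 of 15 and Cdkn1a in none.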

How the data were processed

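Poly(A) RNA libraries of 6 samples were made with a stranded mRNA kit, per the labels' protocols. The deposited values were read as FPKM: the header names no unit and columns sum to 385203 to 392470. Each library was first scaled by a relative depth estimated from these same values. After that, 1 factor per gene turned its 6 values into whole reads within 0.01 for all 15726 genes. The submitters' processing notes name the build mm9. Aligner, counter and use of strand are not given, so coordinates are those of the RefSeq windows only. The table also holds the authors' p-value per gene, as deposited, with the test not stated. Columns named PBS matched the PBS titles; those named P were read as rPPAA18C6@Dox, and the sign of all differences depends on that.

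limma 3.58.1 (R 4.3.3) with a mean-variance trend was fitted to log2(FPKM + 1) of all genes with a mean of at least 1 FPKM in either group; this scale understates changes of low genes. The script was also run on simulated reads in which every gene had the same variation beyond counting. Those results are not given here and back none of the calls. Exact permutation tests over libraries were used for ratios. The genes and lists were chosen with earlier results of these data known. Named beyond the 10 genes were, per list, up to 5 called genes per direction by smallest p (or the 1 smallest p), and the 3 nearest in pattern. Ccne2 was named in addition, as the remaining fall of its list. Exon overlaps are from GENCODE vM21. Same-numbered libraries did not deviate together. Alternatives were 2 scalings, a pseudocount of 0.1, no filter, a filter of 5 FPKM, no trend, a replicate block, voom on recovered reads, and each library left out.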

Additional observations from a re-analysis of the deposited data

How the results depend on the processing

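Trp53 and Phlda3 kept direction and call in all 14 alternative fits, and Mdm4 and Ccng1 kept direction and stayed short of the threshold. Mdm2 turned to 0.0007 with centred libraries, 0.0022 with voom and 0.0062 without PBS replicate 1 (-0.0273 to 0.0062 with 1 library left out). Cdkn1a turned to -0.0101 with quantile normalization and ranged from -0.0220 to 0.0245 with 1 library left out, and Cdkn1b from -0.0660 to 0.0264. Cdkn2c lost its call at -0.15 with quantile normalization or centred libraries and at -0.16 with no filter or no trend, and ranged from -0.21 to -0.13 with 1 library left out, where 1 to 2 of the 8 genes fell. In those 4 alternatives 1 gene fell in place of 2. Cdkn2d ranged from -0.0352 to 0.0793. Over all tested genes 681 passed with no filter (335 lower), 847 rose with voom, and with 1 library left out 600 to 749 passed (314 to 371 higher, 285 to 381 lower). In the 5 related lists, 3 rises became 5 with quantile normalization or centred libraries, 6 with voom, 1 with no filter and 1 to 3 with 1 library left out. Their 11 falls became 7 with no filter or the replicate block, 6 with no trend and 5 to 9 with 1 library left out. The cause of these shifts was not tested. Fits with 1 library left out had fewer samples, and the fit with no filter covered 15726 genes in place of 10680. The numbers of the libraries pair nothing in the labels (correlations of same-numbered deviations -0.00238, 0.0549 and -0.0210); with the replicate block 825 genes passed and the calls of the 8 genes were as reported.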
